A study of Mus musculus with 4 samples.

Results

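The 36 genes described here encode the standing proteasome of mouse cells. They were taken by symbol, as every gene named Psma, Psmb, Psmc or Psmd with a number, leaving out the immunosubunits Psmb8, Psmb9 and Psmb10 and the thymus subunit Psmb11, which gave 36 of the 32285 genes in the count tables. 7 encode alpha subunits and 7 encode beta subunits of the barrel-shaped 20S core, 6 encode ATPases (Psmc genes) and 11 encode other subunits (Psmd genes) of the 19S cap. The symbol rule also took in 3 chaperones that help to build the cap and are not part of it (Psmd5, Psmd9 and Psmd10), 1 alpha subunit made in testis (Psma8) and Psmc3ip, a meiotic recombination factor that carries a proteasome-like symbol. Psma8 and Psmc3ip held 47 and 823 captured RNA molecules (UMIs, unique molecular identifiers) over all barcodes and reached the measuring limit in none of the cell classes compared.

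The proteasome degrades proteins that carry ubiquitin chains. The 19S cap binds and unfolds the substrate with its ring of ATPases, and the alpha rings of the 20S core gate a chamber in which the beta subunits Psmb5, Psmb6 and Psmb7 cut it into peptides. Immune cells also make the immunosubunits Psmb8, Psmb9 and Psmb10, which take the places of Psmb5, Psmb6 and Psmb7 in newly built particles and change the peptides offered to T cells. Inflammatory signals act through the proteasome, since the inhibitor of NF-kB has to be degraded before NF-kB can enter the nucleus.

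Spleens of 10-week-old mice were taken 4 h after 100 µl PBS, alone or carrying 9 µg recombinant mouse TNF, had been given into a vein. The mice were wild-type C57BL/6 or carried the label TRIF-KO on a C57BL/6 background; TRIF, the product of Ticam1, carries signals from Toll-like receptors 3 and 4, and the series asked what its lack does to spleen cell responses to TNF. Red blood cells had been lysed and dead cells removed with magnetic beads before droplet-based single-cell RNA sequencing. There was 1 library per group, so no difference could be tested against replicates, and all intervals below cover counting error only. Values in sets of 4 give PBS and then TNF, first for wild-type and then for TRIF-KO libraries.

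The libraries held 2683, 6855, 6508 and 8060 barcodes, of which 2502, 5254, 5659 and 7061 passed the filters with a median of 4499 to 7351 UMIs. Between 3 and 15 barcodes were shared by any pair of libraries. A barcode was placed in a cell class where at least 80% of its marker UMIs came from that class, which placed 90.9% to 93.0% of the barcodes. The 6 classes compared were monocyte/macrophage-like (113, 120, 187 and 281 cells), erythroid-like (261, 538, 381 and 1172), neutrophil-like (162, 82, 102 and 370), B-like (1246, 2922, 3077 and 3190), NK-like (62, 52, 124 and 64) and T-like (437, 1027, 1257 and 1291). Among the 10 genes that led each class by fold, 5 to 8 were markers of that class and none was a marker of another. These markers include those used to place the barcodes, so the count is no independent check of the class names. At the same treatment, transcripts of Ticam1 were not lower in the libraries labelled TRIF-KO, with 6.64, 3.90, 8.32 and 5.77 CPM (UMIs of the gene relative to all UMIs, scaled to 1e+06), and since the labels do not say which part of the gene was altered this neither checks nor contradicts the label.

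RefSeq promoter windows, from 250 bases before to 50 after the start site (GRCm38.p6), were matched for 29 of the 36 genes in 31 windows. The 7 letters CCGGAAG, bound by ETS-family factors, stood on either strand in 12 of the 31 windows (38.7%), against 8.86% of all 32851 windows of that length. These 12 windows belong to 11 genes, since Psmc2 has more than 1, and they include that of Psmc3ip, which is not a proteasome subunit. The CCAAT box was in 12 windows of these genes (38.7%) and in 37.4% of all windows, and TATAAA in 3 (9.68%) and 13.6%. The core of the antioxidant response element, TGACNNNGC, which Nfe2l1 and Nfe2l2 can bind, was in 5 (16.1%) and 12.4%. A 10-letter NF-kB motif and the full antioxidant element were in 0 of the 31 windows and in 1.47% and 0.454% of all. Stretches upstream of the start site follow for 4 cap genes with the ETS letters and for the catalytic subunit gene Psmb6 with the antioxidant core, with the motif in capitals (CTTCCGG is CCGGAAG read on the other strand). Psmd11 and Psmd2 were among the genes higher after TNF in monocyte/macrophage-like cells in at least 1 genotype, as described further on, whereas Psmc6 and Psmd4 were not.
Psmd11: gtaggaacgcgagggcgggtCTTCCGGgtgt
Psmd2: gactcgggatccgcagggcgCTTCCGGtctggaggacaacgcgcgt
Psmc6: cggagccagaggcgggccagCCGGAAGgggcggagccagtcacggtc
Psmd4: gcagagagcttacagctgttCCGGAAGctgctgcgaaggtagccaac
Psmb6: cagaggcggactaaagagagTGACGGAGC
They lie at chr11:80428584-80428614 (plus strand), chr16:20651606-20651651 (plus), chr14:45329704-45329750 (plus), chr3:95042713-95042759 (minus) and chr11:70525328-70525356 (plus), outside the GENCODE M21 models of the 5 genes. These 5 genes were chosen for display after their values were seen, and a match of letters is a description of the sequence and not of binding.

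Summed over the 36 genes and as a part of all UMIs, proteasome transcripts were highest in monocyte/macrophage-like and NK-like cells among the 6 compared classes and lowest in neutrophil-like and erythroid-like cells. Monocyte/macrophage-like cells held 4629, 5181, 4178 and 5532 CPM, and NK-like cells 3905, 4492, 3997 and 4942 CPM. T-like cells followed with 3114, 3472, 3236 and 3669 CPM and B-like cells with 3064, 3187, 3251 and 3294 CPM. Neutrophil-like cells, short-lived granulocytes packed with ready-made granule proteins, held 1346, 1549, 1652 and 1422 CPM, and erythroid-like cells 1903, 1571, 1326 and 1532 CPM. Monocyte/macrophage-like cells were above NK-like cells in 4 of 4 libraries, with intervals apart in 3, at ratios of 1.05 to 1.19. NK-like cells were above T-like and B-like cells in 4 of 4 libraries, with intervals apart in each. That order depended on the scaling: without mitochondrial, ribosomal, haemoglobin and immunoglobulin genes, NK-like cells held 5002, 6259, 5232 and 7016 CPM, T-like cells 5484, 6576, 5999.5 and 6768 CPM and B-like cells 4811, 5369, 5359 and 5548 CPM, so that T-like cells were above NK-like cells in all but the TRIF-KO TNF library and B-like cells were above them in the TRIF-KO PBS library. On that scale monocyte/macrophage-like cells did not lead throughout, with 5800, 6401, 5424 and 6768 CPM. They were below T-like cells in the wild-type TNF and TRIF-KO PBS libraries and level with them in the TRIF-KO TNF library. In both PBS libraries they were below erythroid-like cells (6120 and 6174 CPM). As a part of all UMIs, T-like and B-like cells were neighbours whose order turned between libraries, with T-like higher in 3 of 4 and intervals apart in 2. Neutrophil-like and erythroid-like cells likewise changed places between libraries.

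**Figure D1:**
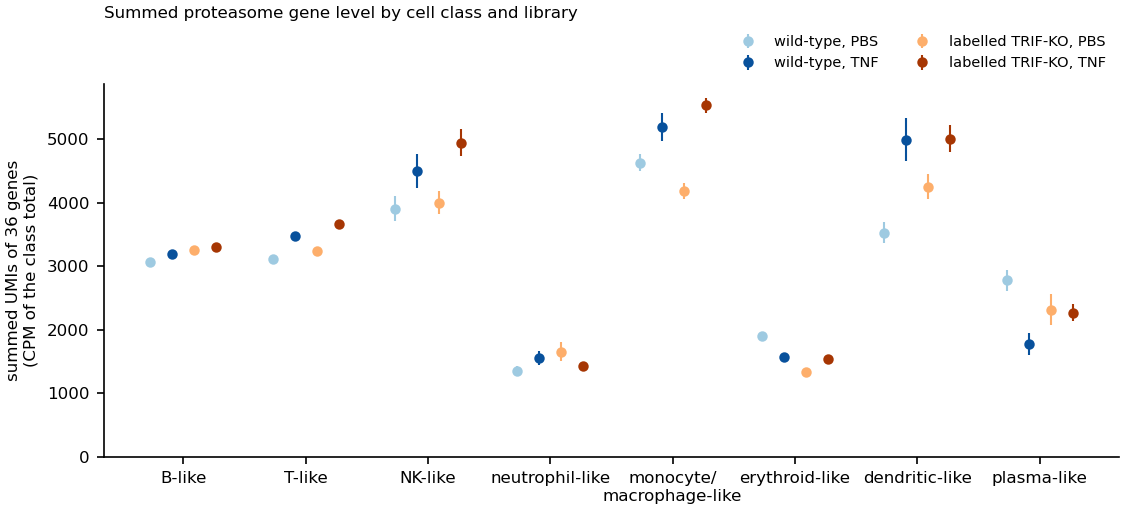
Summed UMIs of the 36 genes as CPM of all UMIs of the class (vertical axis, linear from 0) in 8 cell classes, with 1 point per library and exact Poisson 95% intervals. Monocyte/macrophage-like cells lie between 4178 and 5532 CPM, neutrophil-like cells between 1346 and 1652 and erythroid-like cells between 1326 and 1903.

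The low summed level of erythroid-like cells depended on the scaling and differed within the class. Mitochondrial, ribosomal, haemoglobin and immunoglobulin genes made up 68.9% to 78.5% of their UMIs, and without those genes the 36 proteasome genes held 6120, 6093, 6174 and 6416 CPM there, in the range of monocyte/macrophage-like cells on the same scale (5800, 6401, 5424 and 6768 CPM). Neutrophil-like cells had only 5.19% to 6.54% of such UMIs and stayed low, with 1422, 1634, 1750 and 1522 CPM. The 5 granulocyte genes used to check the neutrophil-like class held 177187 to 306127 CPM, and their part in its low level was not tested. Within the erythroid-like class the level differed with the haemoglobin content of a cell. Cells with under 50% haemoglobin UMIs, 13.2% to 23.4% of the class, held 5361, 4745, 5216 and 5783 CPM of proteasome transcripts, and cells with at least 50% held 593, 657, 487 and 512 CPM. Most proteasome UMIs of the class thus came from a minority of its cells. Those under 50% held 6380, 6883, 4204 and 20021 of its 8244, 10188, 6023 and 27417 proteasome UMIs. On the scale without mitochondrial, ribosomal, haemoglobin and immunoglobulin genes the less haemoglobinised cells were still higher, at 8678, 8680, 9335 and 10184 CPM against 3047, 3759, 3463 and 3205 CPM. The cells with at least 50% haemoglobin were below B-like cells on that scale (4811, 5369, 5359 and 5548 CPM). The split by haemoglobin was added after the values were seen.

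**Figure D2:**
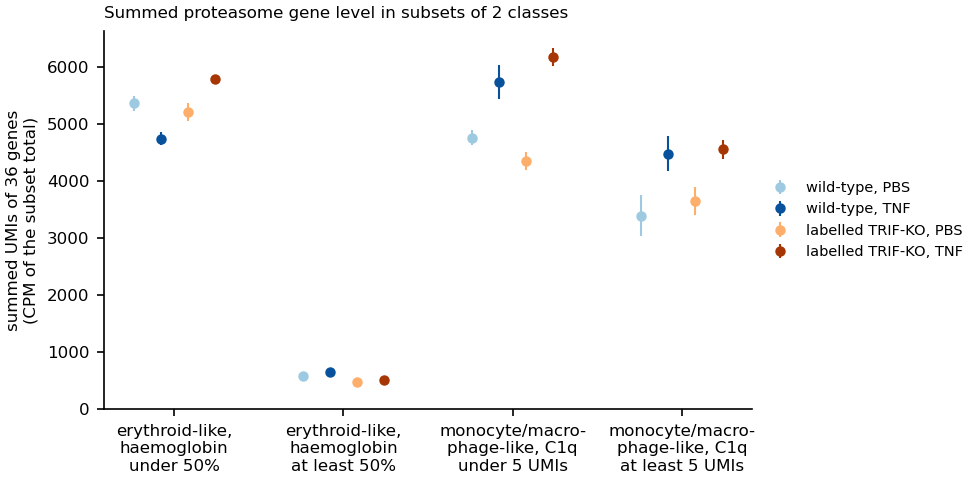
Summed UMIs of the 36 genes as CPM of the UMIs of each subset (linear axis from 0), with exact Poisson 95% intervals and 1 point per library. Erythroid-like cells with under 50% haemoglobin lie between 4745 and 5783 CPM and those with at least 50% between 487 and 657, while the TNF libraries lie above the PBS library of the same genotype in both monocyte/macrophage-like subsets.

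Core subunit genes were the highest of the 36 in each class. UMIs come from transcript ends and are not scaled by length, so these levels are compared as CPM of captured molecules. Psmb1, a non-catalytic beta subunit, was the highest of the 36 genes in B-like, T-like and NK-like cells by its mean over the 4 libraries (274, 301 and 329 CPM). Psma7, an alpha subunit, led in neutrophil-like and monocyte/macrophage-like cells (96.4 and 486 CPM) and Psma2, another alpha subunit, in erythroid-like cells (87.0 CPM). The 3 highest genes of each class were all core subunits, except that the cap's ubiquitin receptor Psmd4 was among them in erythroid-like cells. The median gene had a mean of 85.7 CPM in B-like, 82.4 in T-like, 118 in NK-like, 44.0 in neutrophil-like, 122 in monocyte/macrophage-like and 43.7 CPM in erythroid-like cells. The lowest measured genes of 4 classes were chaperones, Psmd5 in B-like and T-like cells (25.1 and 22.3 CPM) and Psmd9 in monocyte/macrophage-like and erythroid-like cells (23.2 and 22.7 CPM). Measured here means at least 100 UMIs over the 4 libraries of a class and a mean of at least 20 CPM, which 34, 34, 29, 28, 33 and 32 of the 36 genes reached in B-like, T-like, NK-like, neutrophil-like, monocyte/macrophage-like and erythroid-like cells.

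Single genes were also compared between classes. The CPM of each gene in a class was divided by the median of its CPM in the other 5 classes, library by library; this ratio includes the level of the class as a whole. Psma7 held 567, 423, 505 and 447 CPM in monocyte/macrophage-like cells, 2.01 to 2.84 times its level elsewhere. In B-like cells it lay between 189.6 and 222 CPM, with a ratio of 0.777 to 0.842, the lowest of that class by its bound nearest to 1. This set B-like cells below T-like cells (1.19 to 1.29). Neutrophil-like (0.313 to 0.459) and erythroid-like cells (0.230 to 0.373) had lower Psma7 ratios than B-like cells. Psma1, also an alpha subunit, was at 1.26 to 1.38 times in B-like cells and at 0.727 to 0.795 times in T-like cells. These were the highest and the lowest ratios of these classes by their bound nearest to 1. They are the same contrast, since B-like and T-like cells were the middle classes and each set the median for the other. The Psma1 ratio was higher in NK-like (1.52 to 1.75) and monocyte/macrophage-like cells (1.65 to 2.05). In CPM, Psma1 had 111, 119, 122 and 126 in B-like and 83.1, 94.2, 88.7 and 97.3 in T-like cells, with no overlap. Psmc4, an ATPase, stood highest in NK-like cells at 1.53 to 1.93 times. Psmd7, a structural cap subunit that pairs with the deubiquitinase Psmd14, was low in neutrophil-like cells, with 11.0, 15.5, 9.68 and 14.1 CPM or 0.146 to 0.199 times the other classes, and did not reach the measuring limit there. Psmb3 had the lowest ratio in erythroid-like cells, with 58.2, 46.7, 38.5 and 55.3 CPM or 0.244 to 0.365 times, in a class whose summed level was itself 0.277 to 0.621 times that of B-like, T-like, NK-like and monocyte/macrophage-like cells.

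Core transcripts outnumbered cap transcripts in each class and library. The ratio of 20S to 19S UMIs was 1.5, 1.70, 1.64 and 1.61 in B-like cells. T-like cells had 1.61, 1.82, 1.75 and 1.76, and NK-like cells 1.30, 1.62, 1.55 and 1.69. The wild-type PBS library was the lowest of the 4 in these 3 lymphocyte classes. Monocyte/macrophage-like cells had ratios of 1.61, 1.75, 1.83 and 1.66, and neutrophil-like cells 1.33, 1.22, 1.79 and 1.51. The wild-type PBS library was also the lowest in monocyte/macrophage-like cells and in the dendritic-like and plasma-like cells described at the end. In neutrophil-like and erythroid-like cells it was not. Erythroid-like cells were the closest to parity, at 1.03, 1.05, 1.03 and 1.18, and lay below the other 5 compared classes in each library. In their PBS libraries the counting interval of the core share included parity, at 49.6% to 51.8% in wild-type and 49.4% to 52.0% in TRIF-KO cells. Since the wild-type PBS library enters both the TNF comparison in wild-type cells and the genotype comparison under PBS, its low core share in lymphocytes and monocyte/macrophage-like cells touches both.

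For the response to TNF, the log2 ratio of each gene between libraries was set relative to the median log2 ratio of all measured genes of the class, because that median itself was off 0. In wild-type libraries it was -0.16 in B-like and T-like, -0.17 in NK-like, -0.33 in neutrophil-like, -0.23 in monocyte/macrophage-like and -0.28 in erythroid-like cells, and in TRIF-KO libraries -0.01, 0.05, -0.09, -0.32, -0.02 and 0.16. Relative to it, the summed proteasome UMIs were higher with TNF than with PBS in 5 classes of wild-type cells, by a log2 ratio of 0.22 (95% interval 0.19 to 0.24) in B-like, 0.31 (0.28 to 0.34) in T-like, 0.37 (0.26 to 0.49) in NK-like, 0.53 (0.40 to 0.67) in neutrophil-like and 0.40 (0.32 to 0.47) in monocyte/macrophage-like cells. Erythroid-like cells gave 0.01 (-0.03 to 0.05), which turned to -0.28 on plain CPM. In the TRIF-KO libraries the ratio was 0.03 (0.01 to 0.05) in B-like, 0.13 (0.11 to 0.15) in T-like, 0.40 (0.31 to 0.49) in NK-like, 0.42 (0.37 to 0.48) in monocyte/macrophage-like and 0.05 (0.01 to 0.09) in erythroid-like cells. The last of these turned to -0.025 with a stricter cell gate (95% of marker UMIs) and to -0.086 in cells with at least 50% haemoglobin. Neutrophil-like cells gave 0.11 (-0.03 to 0.24), which turned to -0.22 on plain CPM.

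In wild-type cells 29 of 34 measured genes lay above the all-gene median in B-like, 32 of 34 in T-like, 26 of 29 in NK-like, 25 of 28 in neutrophil-like, 27 of 33 in monocyte/macrophage-like and 15 of 32 in erythroid-like cells. The medians of the proteasome genes were 0.23, 0.28, 0.43, 0.69, 0.40 and -0.01, beside 0 for all genes by construction. In TRIF-KO cells 18 of 34, 29 of 34, 27 of 29, 18 of 28, 27 of 33 and 19 of 32 genes lay above it, with medians of 0.01, 0.12, 0.41, 0.22, 0.49 and 0.05.

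**Figure D3:**
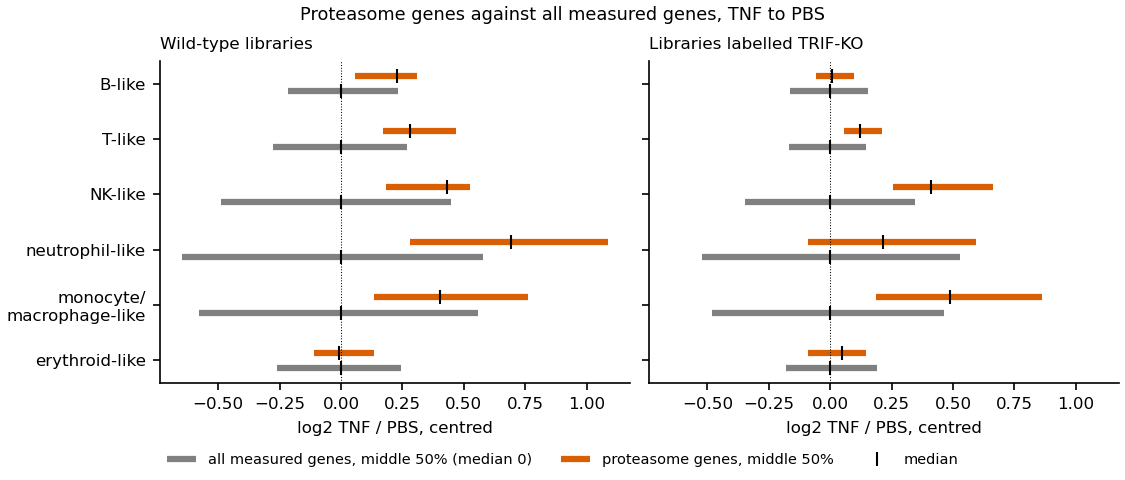
Log2 ratio of TNF to PBS relative to the all-gene median (horizontal axis) for proteasome genes and for all measured genes of 6 classes; bars span the middle 50% of genes and ticks mark medians. The medians of the proteasome genes reach 0.69 in wild-type neutrophil-like cells and 0.49 in TRIF-KO monocyte/macrophage-like cells, and lie at -0.01 and 0.05 in erythroid-like cells.

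A gene was counted as higher or lower where it differed by at least 1.5-fold relative to all genes with the exact interval on one side of 1. Among wild-type monocyte/macrophage-like cells 14 of 33 proteasome genes were higher with TNF and 0 lower, beside 19.9% higher and 17.4% lower of all 5193 measured genes. In the TRIF-KO libraries 15 of 33 were higher and 0 lower, beside 19.2% and 20% of all genes. The same 10 genes were higher in both genotypes, namely the core genes Psma3, Psma6, Psmb5 and Psmb6, the ATPase gene Psmc1, the cap genes Psmd1, Psmd11, Psmd12 and Psmd14, and the chaperone gene Psmd10. These counts and the summed ratios depended on how cells were gated. Under the stricter gate, which left 44, 59, 68 and 140 cells, 3 and 1 of the 16 genes still measured were higher, beside 23% of all genes in each genotype, and the summed log2 ratio was 0.085 in wild-type and 0.025 in TRIF-KO cells in place of 0.40 and 0.42. On plain CPM 7 of 33 were higher in wild-type cells, beside 14.5%, and with UMIs thinned to the smallest library 8 of 31 in TRIF-KO cells, beside 20.1%.

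Of the 3 catalytic subunits, Psmb5, which cuts after hydrophobic residues, held 206, 306, 154 and 304 CPM in monocyte/macrophage-like cells. Both TNF libraries were above both PBS libraries, by log2 ratios of 0.81 (0.48 to 1.13) in wild-type and 1.0 (0.73 to 1.28) in TRIF-KO cells relative to all genes. Psmb6, which cuts after acidic residues, held 125, 214, 93.7 and 182 CPM, with log2 ratios of 1.01 (0.61 to 1.41) and 0.97 (0.63 to 1.33) and again no overlap between TNF and PBS. Psmb7, which cuts after basic residues, held 88.3, 153, 119 and 115 CPM. It was higher with TNF in wild-type cells (log2 ratio 1.03, 0.55 to 1.5) and gave -0.03 (-0.38 to 0.32) in the TRIF-KO libraries, whose 2 values lay between those of the wild-type libraries.

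Among the alpha subunits, Psma6 held 125, 214, 118 and 225 CPM in monocyte/macrophage-like cells, with log2 ratios of 1.01 (0.61 to 1.41) and 0.95 (0.64 to 1.26). Psma3 held 230, 313, 218 and 332 CPM, with log2 ratios of 0.68 (0.36 to 0.99) and 0.63 (0.39 to 0.86). In each of the 2 genes both TNF libraries were above both PBS libraries. Psma7, the most abundant of the 36 genes in these cells, was lower in CPM with TNF in both genotypes (567, 423, 505 and 447), and was called in neither genotype.

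The cap gene Psmd1, a large scaffold subunit to which ubiquitin receptors bind, held 87.4, 162, 72.3 and 157 CPM, with log2 ratios of 1.13 (0.66 to 1.59) and 1.14 (0.75 to 1.54). Psmd14, the deubiquitinase that removes ubiquitin chains from substrates, held 78.9, 106, 67.2 and 118 CPM (0.66, 0.10 to 1.2, and 0.83, 0.41 to 1.26). Psmd11 and Psmd12, neighbouring scaffold subunits of the cap's lid, held 108, 141, 88.6 and 133 CPM and 88.3, 113, 45.8 and 109 CPM. The TRIF-KO PBS library was the lowest for Psmd12, and its log2 ratio was 0.59 (0.06 to 1.10) in wild-type and 1.26 (0.78 to 1.77) in TRIF-KO cells. Psmd10, the chaperone also known as gankyrin, had the highest ratio of all in both genotypes, with 37.6, 87.0, 30.5 and 75.5 CPM and log2 ratios of 1.45 (0.76 to 2.13) and 1.32 (0.73 to 1.96); in 1 library a single cell held 18.9% of its UMIs in this class. Psmc1, an ATPase, held 65.8, 101, 62.1 and 134 CPM (0.85, 0.27 to 1.42, and 1.13, 0.71 to 1.56). Other cap genes passed in only 1 genotype, among them Psmc5, with 77.0, 77.6, 48.9 and 109 CPM, where the difference between genotypes is given further on.

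**Figure D4:**
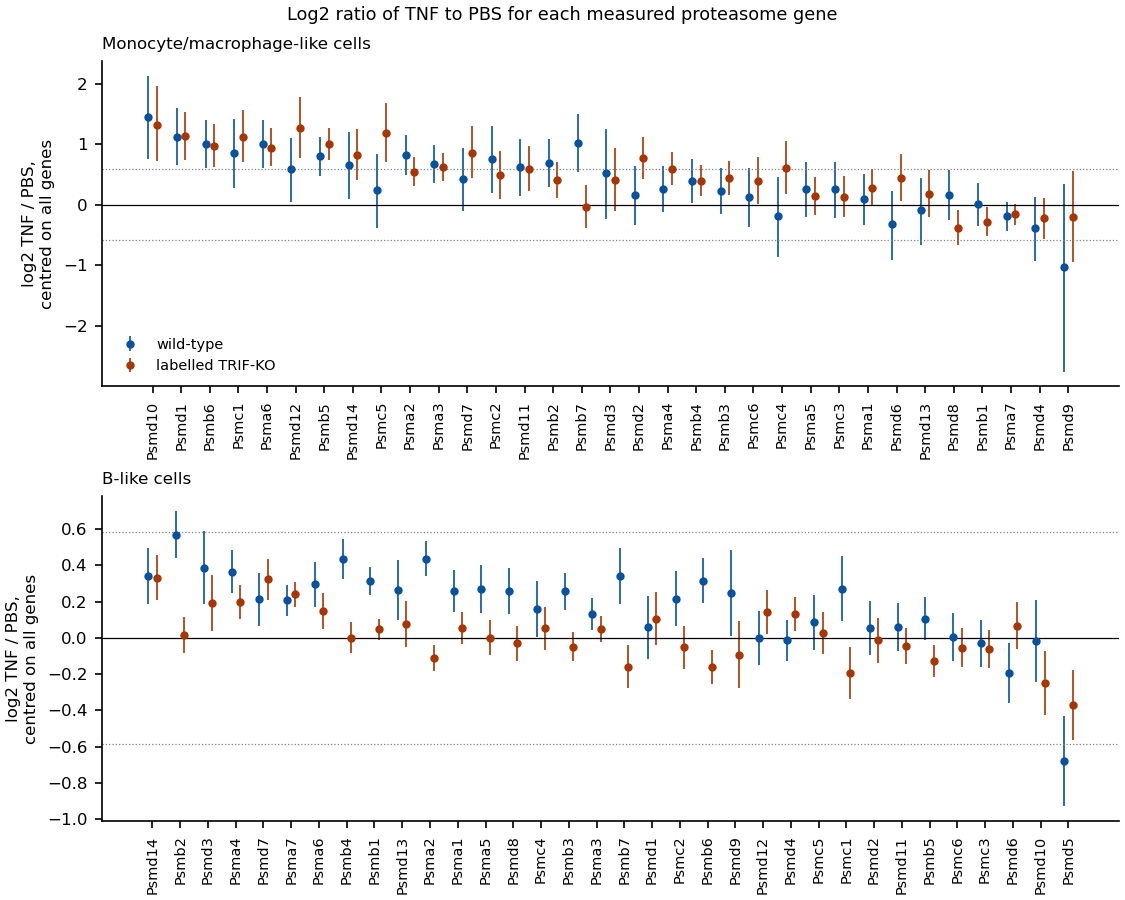
Log2 ratio of TNF to PBS relative to the all-gene median (vertical axis) for each measured proteasome gene in monocyte/macrophage-like (top) and B-like cells (bottom), in wild-type and TRIF-KO libraries, with exact 95% intervals for counting error; dotted lines mark 1.5-fold. Psmd10, Psmd1 and Psmb6 lie high in both genotypes in the upper panel, while the lower panel stays within 1.5-fold except for Psmd5 in wild-type cells.

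The make-up of the monocyte/macrophage-like class moved with treatment. Its median depth was 11554, 1199, 3642 and 1546 UMIs per cell, and cells with at least 5 UMIs of C1q genes, markers of red-pulp and other tissue macrophages, were 38.1%, 67.5%, 48.1% and 65.8% of it. The summed level of 5 monocyte and macrophage genes outside the gate was 26283, 11278, 27007 and 11667 CPM, that of 5 neutrophil genes 122, 672, 508 and 1107 CPM and that of 5 NK genes 3.76, 247, 19.3 and 88.8 CPM. Within the cells below 5 C1q UMIs the summed proteasome level was 4763, 5729, 4350 and 6177 CPM, with a log2 ratio of TNF to PBS of 0.51 in wild-type and 0.50 in TRIF-KO cells, and 13 and 17 of 32 measured genes were higher, beside 18.8% and 19.8% of all genes. Within the cells with at least 5 C1q UMIs it was 3385, 4480, 3647 and 4554 CPM, with ratios of 0.42 and 0.23, and 3 and 4 of 25 measured genes were higher, beside 15.2% and 18%. Among cells with at least 2000 UMIs 13 and 15 of 32 genes were higher, beside 19.3% and 19.5%. The proteasome sum was thus above PBS in both subsets of each genotype, and the part of depth and cell make-up in the single-gene counts was not tested beyond these values.

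In wild-type NK-like cells 3 of 29 genes were higher with TNF and 0 lower, beside 14.7% higher and 14.7% lower of all 2467 measured genes, and in TRIF-KO cells 8 of 29 were higher and 0 lower, beside 11.3% and 12%. The core genes Psmb2 and Psma6 were higher in both. Psmb2, a non-catalytic beta subunit, held 100.3, 169, 100.5 and 165 CPM, with log2 ratios of 0.93 (0.25 to 1.60) and 0.81 (0.27 to 1.37). Psma6 held 84.9, 144, 89.8 and 147 CPM, with 0.93 (0.20 to 1.67) and 0.81 (0.23 to 1.40). Both TNF libraries were above both PBS libraries for these genes. In TRIF-KO cells the highest ratio was that of the alpha subunit Psma4, which held 126, 127, 115 and 217 CPM, so that the TRIF-KO TNF library alone was high. With 52 to 124 cells per library the intervals are wide. The stricter gate left 11 to 57 cells and 4 measured genes, of which 0 were called in either genotype, beside 8.49% and 8.33% of all genes; the wild-type summed ratio turned to -0.084 and the TRIF-KO one was 0.33. With UMIs thinned to the smallest library 1 and 4 of 18 genes were higher, beside 12.8% and 11.1%, and on plain CPM 2 and 6 of 29, beside 8.67% and 8.76%. Marker levels of other cell types differed between these libraries, with dendritic genes at 746, 1791, 584 and 884 CPM, neutrophil genes at 121, 356, 135 and 295 CPM and T-cell genes at 280.4, 533, 306 and 319 CPM, while NK genes outside the gate stood at 27494, 23779, 31079 and 24691 CPM. Their part in the result was not tested.

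In wild-type neutrophil-like cells 11 of 28 genes were higher with TNF and 0 lower, beside 19.5% higher and 21.1% lower of all 3854 measured genes. In TRIF-KO cells 1 was higher and 1 lower, beside 16.2% and 19.2%. In wild-type cells 7 of 22 measured genes were higher under the stricter gate, beside 19.8%, 4 of 28 on plain CPM, beside 12.3%, and 2 of 5 with UMIs thinned to the smallest library, beside 22.7%. On plain CPM 2 of 28 genes were lower in wild-type and 4 of 28 in TRIF-KO cells, beside 31.7% and 30.2%. Marker levels differed between the libraries as well, with the class's own check genes at 177187, 268505, 206417 and 306127 CPM, erythroid genes at 2046, 1361, 1013 and 7632 CPM and dendritic genes at 1814, 361, 1317 and 413 CPM, and their part in the result was not tested. The cap gene Psmd8 held 58.6, 104, 87.1 and 72.6 CPM, highest in the wild-type TNF library, with log2 ratios relative to all genes of 1.16 (0.55 to 1.77) in wild-type and 0.06 in TRIF-KO cells. Psmd11 held 22.0, 50.9, 38.7 and 37.5 CPM and Psma6 43.9, 75.2, 58.1 and 69.6 CPM, with wild-type ratios of 1.54 (0.59 to 2.52) and 1.11 (0.39 to 1.83). Psma3 was the gene that was lower in TRIF-KO cells, with 87.8, 53.1, 142 and 59.4 CPM and a ratio of -0.94 (-1.41 to -0.43); the TRIF-KO PBS library was the highest. The catalytic genes Psmb5 and Psmb6 were called in neither genotype after TNF (50, 57.5, 74.2 and 59.1 CPM, and 18.3, 31.0, 54.9 and 41.4 CPM), and Psmb7 only in wild-type cells (42.7, 66.4, 61.3 and 45.0 CPM). These values rest on 512 to 4743 proteasome UMIs per library, and for Psmd14 a single cell held 50% of the 4 UMIs of 1 library.

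In T-like cells 2 of 34 genes were higher with TNF in wild-type and 0 in TRIF-KO cells, and 0 were lower in either, beside 8.28% higher and 9.52% lower of all 5051 genes in wild-type and 3.44% and 4.2% in TRIF-KO cells. These 2 were Psma2, with 171, 267, 191 and 252 CPM and a wild-type log2 ratio of 0.80 (0.67 to 0.92), and Psmb6, with 92.8, 131, 112 and 126 CPM and 0.65 (0.48 to 0.82). Under the stricter gate and with thinned UMIs 4 of 34 were higher in wild-type cells, beside 8.88% and 8.49%, and on plain CPM 1 of 34, beside 5.33%. In the TRIF-KO libraries the ratios were 0.34 for Psma2 and 0.12 for Psmb6. Both TNF libraries were above both PBS libraries for Psma2 and for Psmb6. Psmb7 showed the same order, with 57.4, 68.3, 58.5 and 69.4 CPM, but was called in neither genotype. Psmb5 showed no such order, with 112, 104, 126 and 124 CPM.

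In B-like cells, the most deeply counted class, no proteasome gene was 1.5-fold higher with TNF in either genotype, beside 4.93% of all 5391 genes in wild-type and 3.19% in TRIF-KO cells, and 1 was lower, beside 4.86% and 2.76%. That gene was Psmd5, a chaperone of the cap's base, with 32.0, 17.9, 28.7 and 22.0 CPM and log2 ratios of -0.68 (-0.93 to -0.43) in wild-type and -0.37 (-0.56 to -0.18) in TRIF-KO cells; both TNF libraries were below both PBS libraries. The highest wild-type ratio was that of Psmb2, with 78.7, 105, 98.6 and 99.2 CPM and 0.57 (0.44 to 0.70). Only the wild-type PBS library was low for Psmb2. Of the catalytic genes, Psmb5 lay at 104, 101, 124 and 113 CPM, Psmb6 at 95.9, 107, 117 and 104 CPM and Psmb7 at 59.9, 67.9, 72.0 and 64.0 CPM, and their highest value lay in the TRIF-KO PBS library.

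In erythroid-like cells 1 of 32 genes was higher with TNF in wild-type and 0 in TRIF-KO cells, beside 6.72% and 4.32% of all 2246 genes, and 0 were lower, beside 8.01% and 2.27%. It was the chaperone gene Psmd9, with 21.5, 27.1, 20.5 and 21.6 CPM and a wild-type ratio of 0.62 (0.25 to 1.0). The catalytic genes held 61.4, 43.6, 39.8 and 47.3 CPM (Psmb5), 44.1, 36.1, 30.6 and 42.4 CPM (Psmb6) and 53.1, 40.3, 36.8 and 40.9 CPM (Psmb7), in each case highest in the wild-type PBS library. In 1 library a single barcode held up to 17.8% of the UMIs of a measured gene of this class (Psmd7).

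Compared at the same treatment, the libraries labelled TRIF-KO were set against wild-type ones. Under PBS the summed log2 ratio of TRIF-KO to wild-type, relative to all genes, was 0.18 (0.16 to 0.20) in B-like, 0.15 (0.12 to 0.18) in T-like, 0.05 (-0.04 to 0.15) in NK-like, 0.31 (0.16 to 0.47) in neutrophil-like, -0.10 (-0.16 to -0.04) in monocyte/macrophage-like and 0.09 (0.04 to 0.14) in erythroid-like cells. The monocyte/macrophage-like value turned to 0.04 with each cell weighted equally, and the erythroid-like one to -0.52 on plain CPM. After TNF the ratio was -0.01 (-0.02 to 0.01), -0.02 (-0.04 to 0.00), 0.09 (-0.02 to 0.20), -0.11 (-0.22 to 0.01), -0.02 (-0.09 to 0.05) and 0.10 (0.07 to 0.13) in the same order. On plain CPM 4 of these turned, to 0.048 (0.031 to 0.065) in B-like, 0.079 (0.057 to 0.102) in T-like, 0.095 (0.027 to 0.163) in monocyte/macrophage-like and -0.036 (-0.069 to -0.0035) in erythroid-like cells, and in erythroid-like cells with at least 50% haemoglobin the ratio was -0.15.

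Few single genes passed 1.5-fold between genotypes. Under PBS, 2 of 28 genes were higher in TRIF-KO neutrophil-like cells, beside 8.56% of all genes, and these were Psmb6 (1.60, 0.51 to 2.71) and Psma3 (0.71, 0.13 to 1.27). Psmb6 held 18.3 CPM in wild-type and 54.9 CPM in TRIF-KO cells. The class had 819670 and 309906 UMIs of all genes in these libraries, so the Psmb6 ratio rests on few molecules. In monocyte/macrophage-like cells 2 of 33 were lower under PBS, beside 7.39% (and 7.93% higher), and these were Psmc5 (-0.61, -1.16 to -0.08) and Psmd12 (-0.90, -1.45 to -0.37). No gene passed under PBS in B-like, T-like, NK-like or erythroid-like cells, beside 0.538%, 0.832%, 2.35% and 4.94% higher and 0.816%, 1.48%, 4.9% and 5.74% lower of all genes. After TNF, 1 gene was higher in T-like cells (Psmd5, 0.62, 0.30 to 0.95, beside 1.74% higher and 2.89% lower), 1 was higher in NK-like cells (Psma4, 0.72, 0.12 to 1.36, beside 3.77% higher and 4.42% lower) and 1 was lower in neutrophil-like cells (Psmc4, -0.95, -1.72 to -0.11, beside 11.1% lower and 9.11% higher). None passed after TNF in B-like, monocyte/macrophage-like or erythroid-like cells, beside 0.297%, 5.82% and 1.96% higher and 1.17%, 6.61% and 3.74% lower of all genes.

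The difference between the responses, the TRIF-KO log2 ratio of TNF to PBS minus the wild-type one, was negative for the summed genes in B-like (-0.19, -0.21 to -0.16), T-like (-0.19, -0.22 to -0.15) and neutrophil-like cells (-0.43, -0.62 to -0.24). In NK-like (0.03, -0.12 to 0.17), monocyte/macrophage-like (0.03, -0.07 to 0.12) and erythroid-like cells (0.04, -0.02 to 0.10) its interval held 0. The difference rests on 4 libraries with no replicate of any, and in B-like and T-like cells the value is close in size to the difference between the PBS libraries. It also depends on setting ratios against the all-gene median. On plain CPM the wild-type and TRIF-KO summed ratios were 0.157 and 0.181 in T-like cells, so the TRIF-KO one was the larger. They were 0.057 and 0.019 in B-like, 0.20 and -0.22 in neutrophil-like and 0.20 and 0.31 in NK-like cells. Monocyte/macrophage-like cells gave 0.16 and 0.41, and erythroid-like cells -0.28 and 0.21. Single genes whose responses differed by at least 1.5-fold were 0 of 34 in B-like, 0 of 34 in T-like and 0 of 29 in NK-like cells, beside 5.16%, 9.8% and 11.5% of all genes. In neutrophil-like cells there were 4 of 28, beside 21.7%, and all 4 had the smaller response in TRIF-KO cells, namely Psmb7 (-1.13, -2.10 to -0.15), Psma5 (-1.45, -2.83 to -0.08), Psmd8 (-1.13, -1.94 to -0.31) and Psmd11 (-1.31, -2.53 to -0.10). In monocyte/macrophage-like cells there were 5 of 33, beside 19.2%. Psmb7 had the smaller response in TRIF-KO cells (-1.06, -1.63 to -0.49), and the cap genes Psmc4 (0.77, 0.02 to 1.51), Psmc5 (0.91, 0.17 to 1.65), Psmd6 (0.75, 0.09 to 1.41) and Psmd2 (0.60, 0.03 to 1.17) the larger. In erythroid-like cells it was 1 of 32, Psmd9 (-0.71, -1.20 to -0.22), beside 21.3%.

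The balance between each standing catalytic subunit and its immunosubunit differed between cell classes. Capture can differ between 2 genes, so a share of UMIs is compared here between classes and libraries and not read as a share of protein. Psmb8 made up 77.1%, 78.3%, 77.2% and 75.8% of the UMIs of Psmb5 and Psmb8 in B-like cells and 79.7%, 82.3%, 79.1% and 80.6% in T-like cells. In erythroid-like cells it made up 27.1%, 30.5%, 23.0% and 25.5%, with exact Clopper-Pearson 95% intervals that lay between 17.8% and 35.2%. Under the stricter gate these erythroid-like shares were 5.41%, 24.2%, 5.07% and 14.7%. Psmb9 in its pair with Psmb6 was at 20.1% to 25% and Psmb10 in its pair with Psmb7 at 18.7% to 25.6% in erythroid-like cells, against 56.6% to 61.2% and 60.9% to 62.2% in B-like cells. In neutrophil-like cells the pairs parted. Psmb9 made up 81.3%, 65.0%, 72.6% and 60.9% of its pair there, but Psmb10 only 20.5%, 23.1%, 13.6% and 43.8%, the first 3 of these on 44, 39 and 22 UMIs.

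In monocyte/macrophage-like cells the balance of 2 pairs differed between TNF and PBS in both genotypes. Psmb8 made up 66.5% (62.8% to 70.1%), 45.4% (38.9% to 51.9%), 70.5% (66.3% to 74.4%) and 55.0% (51.8% to 58.0%) of its pair. Psmb9 made up 54.3% (48.4% to 60.1%), 36.4% (28.5% to 44.8%), 61.5% (55.0% to 67.7%) and 36.3% (31.7% to 41.0%). In both pairs the 2 TNF libraries were below the 2 PBS libraries with no overlap of intervals. Under the stricter gate the Psmb8 shares were 62.5%, 46.1%, 68.7% and 65.6%, so that the TRIF-KO TNF library lay above the wild-type PBS one, and the Psmb9 shares 52.7%, 35.4%, 76.7% and 55%, likewise with an overlap. Psmb10 showed no such order, at 70.3%, 58.9%, 57.1% and 66.7%. Relative to all genes, none of the 3 immunosubunits passed 1.5-fold in either genotype in these cells, with Psmb8 at 409, 254, 368 and 371 CPM, Psmb9 at 148, 122, 149.7 and 103 CPM and Psmb10 at 209, 219, 159 and 231 CPM, while Psmb5 and Psmb6 did. In wild-type cells the all-gene median was -0.23, and Psmb8 was lower with TNF in plain CPM. Whether Psmb5 or Psmb8 moved more there thus depends on the scaling. As in the preceding sections, the depth and C1q make-up of the class differed between its libraries.

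**Figure D5:**
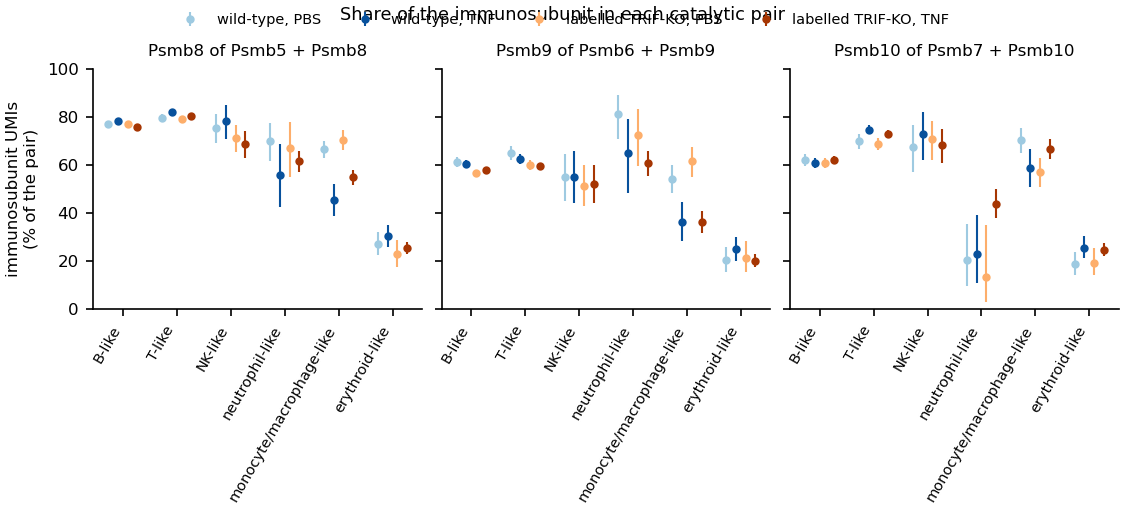
Share of immunosubunit UMIs in each catalytic pair (percent, linear axis from 0 to 100) in 6 classes, with 1 point per library and exact Clopper-Pearson 95% intervals. In monocyte/macrophage-like cells the Psmb8 share is 45.4% and 55.0% in the TNF libraries against 66.5% and 70.5% in the PBS libraries, and in erythroid-like cells it stays between 23.0% and 30.5%.

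Of the proteasome activators, Psme2, a subunit of the PA28 ring that opens the 20S core, stood out after TNF. In monocyte/macrophage-like cells its CPM were 270, 621, 177 and 583, in neutrophil-like cells 76.9, 319, 100 and 278, and in NK-like cells 198, 364, 209 and 391, with both TNF libraries above both PBS libraries in each. Its partner Psme1 held 123, 166, 116 and 178 CPM in neutrophil-like cells, and monocyte/macrophage-like cells had 413, 465, 310 and 459 CPM. Of the 9 genes in the list of immunosubunits and activators, 7 were measured in monocyte/macrophage-like cells, of which 1 was higher in wild-type and 2 in TRIF-KO cells (Psme2, with Psme3 in the latter) and 0 lower, beside the 19.9% and 19.2% of all genes that were higher. In T-like cells 2 of 7 were higher in wild-type (Psmb10 and Psme2), beside 8.28%, and 0 in TRIF-KO cells, beside 3.44%, and in B-like cells 0 of 7 in either, beside 4.93% and 3.19%.

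For assembly factors and regulators the shares of all genes in monocyte/macrophage-like cells were again 19.9% higher and 17.4% lower in wild-type and 19.2% and 20% in TRIF-KO cells. Of 11 assembly and ubiquitin-handling genes, 9 were measured in monocyte/macrophage-like cells. In wild-type cells 1 was higher with TNF (Txnl1, a cap-bound thioredoxin) and 1 lower (Akirin2, which brings proteasomes into the nucleus), and in TRIF-KO cells 3 were higher (Adrm1, Usp14 and Txnl1) and 1 lower (Akirin2). Akirin2 held 68.6, 28.2, 65.2 and 39.1 CPM. Pomp, the chaperone of core assembly, held 435, 393, 402 and 447 CPM there and was called in neither genotype. Of 11 regulators and ubiquitin shuttles, all measured in these cells, 7 were higher with TNF in wild-type and 5 in TRIF-KO cells, and 1 was lower in each, though not the same gene. Nfe2l1, the transcription factor known to raise proteasome genes when proteasomes fail, held 83.6, 120, 56.0 and 92.1 CPM and was counted as higher in both genotypes, as were its relative Nfe2l2 (178, 385, 190 and 345 CPM), Zfand5, Ubqln1 and the unfoldase gene Vcp (224, 299, 203 and 302 CPM). Ddi2, the protease that activates Nfe2l1, held 199, 65.8, 128 and 88.1 CPM and was lower in wild-type cells.

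Dendritic-like and plasma-like cells were too few to compare, with 29, 19, 40 and 32 and 11, 13, 7 and 16 cells. Their summed proteasome levels were 3528, 4980, 4251 and 5006 CPM in dendritic-like cells, where both TNF libraries were above both PBS libraries, and 2773, 1768, 2304 and 2268 CPM in plasma-like cells, where no such order was seen.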

How the data were processed

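Whole-number UMI counts per gene and barcode were used as the authors deposited them. The matrices came from Cell Ranger 6.0.1, per the file headers; the submitters' processing notes list Cell Ranger 3.0, Seurat 4.1.1 and mm10; the annotation release and the treatment of reads shared with processed pseudogenes, which several of these genes have, are not given in the sources used here. Kept barcodes had 200 or more genes and no more than 10% mitochondrial UMIs; the mitochondrial limit removed 6.26% to 22.4%. A barcode joined a class with at least 3 UMIs from at least 2 of its markers, holding at least 80% of its marker UMIs (between 48 and 164 barcodes per library lay from 70% to 80%, and 140 to 347 from 80% to 90%). Barcodes with mixed markers were left out, and no doublet caller was run. Classes needed 50 cells in every library.

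UMIs were summed per class and library, as CPM with exact Poisson intervals. Ratios have exact conditional 95% intervals (numpy 2.4.6, scipy 1.17.1) and are set against the median over all measured genes; the difference between responses used 0.5 added per count and a normal approximation. With 1 library per group no p-value was calculated. The ratio method was tested on simulated counts for the wild-type B-like comparison of TNF with PBS (5376 genes), where 100 of 100 genes raised and 100 of 100 genes lowered 2-fold were recovered and 0 of 5176 unchanged genes were called. Those counts followed the Poisson model that the intervals assume, without variation between cells or libraries, in the most deeply counted class. The run therefore checks the calculation and gives no rate of false calls for the real libraries or the smaller classes. Intervals treat UMIs as independent and take no account of UMIs that lie in 1 cell.

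Named genes are, per class and comparison, the 3 highest and 3 lowest by the bound nearest to 1, the catalytic subunits, genes called in at least 2 classes, those highest or lowest against the other classes in each class, and fixed pathway lists; the text gives a part of these, and 1 gene of the pathway lists is not reported here. The genes, lists and rules were chosen with earlier results of these data known. In bulk sums over a class, a change in its cell make-up and a change per cell cannot be told apart.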

Additional observations from a re-analysis of the deposited data

Results flagged for a closer look

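4 core and cap genes had responses to TNF of opposite sign in the 2 genotypes of B-like cells, each with its counting interval on one side of 0. With 1 library per group this difference was not tested. The TRIF-KO minus wild-type difference of log2 ratios was -0.50 for Psmb7 (0.34 in wild-type, -0.16 in TRIF-KO), -0.48 for Psmb6 (0.32 and -0.16), -0.46 for Psmc1 (0.27 and -0.19) and -0.55 for Psma2 (0.44 and -0.11). None of the 8 ratios reached 1.5-fold, and the wild-type PBS library had the lowest CPM of the 4 libraries for Psmb7, Psmb6 and Psma2.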

How the results depend on the processing

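The direction of the summed TNF response in B-like and T-like cells held under every setting run. Under the 95% gate, which left 44 to 140 monocyte/macrophage-like and 11 to 57 NK-like cells per library, the monocyte/macrophage-like responses were small and the wild-type NK-like one reversed, and the cause was not tested. Erythroid-like values turned with the scaling. Splits by C1q, by haemoglobin and at 2000 UMIs were added after the data were seen, and all 72 values at 2000 UMIs and above stayed within the limits set for a change. Depth limited NK-like and neutrophil-like cells, where thinning left 18 and 5 measured genes of the 36. With 1 library per group no library could be left out. No paired analysis was possible because each group had 1 library. The values that moved follow. Counts of genes in this list stand without the share of all genes and are not read as results about these genes.
On plain CPM, the log2 ratio of TNF over PBS in wild-type was 0.057 in B-like, 0.16 in T-like, 0.20 in NK-like, 0.20 in neutrophil-like, 0.16 in monocyte/macrophage-like and -0.28 in erythroid-like, and that of TRIF-KO over wild-type under PBS was 0.085 in B-like, 0.055 in T-like and -0.52 in erythroid-like, and that of TRIF-KO over wild-type after TNF was 0.048 in B-like, 0.079 in T-like, 0.095 in monocyte/macrophage-like and -0.036 in erythroid-like, and that of TNF over PBS in TRIF-KO was 0.18 in T-like, 0.31 in NK-like, -0.22 in neutrophil-like and 0.21 in erythroid-like. Genes higher for TNF over PBS in wild-type numbered 1 in T-like, 4 in neutrophil-like and 7 in monocyte/macrophage-like, and genes higher for TRIF-KO over wild-type after TNF numbered 2 in NK-like, and genes lower for TNF over PBS in wild-type numbered 2 in neutrophil-like and 4 in erythroid-like, and genes lower for TNF over PBS in TRIF-KO numbered 4 in neutrophil-like, and genes lower for TRIF-KO over wild-type under PBS numbered 10 in erythroid-like. In that last comparison the median log2 ratio of all measured genes on plain CPM was itself -0.61. Without the 4 abundant gene groups and uncentred, the log2 ratio of TNF over PBS in wild-type was 0.16 in B-like, 0.26 in T-like, 0.20 in neutrophil-like and 0.14 in monocyte/macrophage-like, and that of TNF over PBS in TRIF-KO was 0.050 in B-like, 0.17 in T-like, -0.20 in neutrophil-like and 0.32 in monocyte/macrophage-like, and that of TRIF-KO over wild-type under PBS was 0.16 in B-like and 0.013 in erythroid-like, and that of TRIF-KO over wild-type after TNF was 0.047 in B-like, 0.042 in T-like and 0.080 in monocyte/macrophage-like. Over genes of at least 50 CPM, the log2 ratio of TNF over PBS in wild-type was 0.19 in B-like, 0.28 in T-like and -0.050 in erythroid-like, and that of TRIF-KO over wild-type under PBS was 0.0056 in erythroid-like. At 5% mitochondrial UMIs, the log2 ratio of TRIF-KO over wild-type under PBS was 0.22 in B-like and 0.17 in erythroid-like, and that of TNF over PBS in wild-type was 0.48 in monocyte/macrophage-like and 0.081 in erythroid-like, and that of TNF over PBS in TRIF-KO was 0.48 in monocyte/macrophage-like. Genes higher for TNF over PBS in wild-type numbered 2 in B-like, and genes lower for TRIF-KO over wild-type after TNF numbered 2 in neutrophil-like, and genes higher for TRIF-KO over wild-type under PBS numbered 2 in erythroid-like. The Psmb9 share of B-like cells was 58.6% (PBS in wild-type) and 56.7% (TNF in TRIF-KO). The Psmb10 share of B-like cells was 65.4% (PBS in wild-type) and 59.4% (TNF in TRIF-KO). Without the 5% of cells with most UMIs, the log2 ratio of TRIF-KO over wild-type after TNF was -0.024 in B-like and 0.0053 in erythroid-like, and that of TNF over PBS in TRIF-KO was 0.33 in monocyte/macrophage-like and 0.0066 in erythroid-like, and that of TRIF-KO over wild-type under PBS was -0.030 in monocyte/macrophage-like and 0.14 in erythroid-like, and that of TNF over PBS in wild-type was 0.16 in erythroid-like. At 2-fold, genes higher for TNF over PBS in wild-type numbered 0 in T-like, 0 in NK-like, 7 in neutrophil-like and 5 in monocyte/macrophage-like, and genes higher for TNF over PBS in TRIF-KO numbered 1 in NK-like and 6 in monocyte/macrophage-like, and genes higher for TRIF-KO over wild-type under PBS numbered 1 in neutrophil-like, and genes lower for TRIF-KO over wild-type under PBS numbered 0 in monocyte/macrophage-like. With the 95% gate, the log2 ratio of TNF over PBS in wild-type was -0.084 in NK-like, 0.085 in monocyte/macrophage-like and 0.13 in erythroid-like, and that of TRIF-KO over wild-type after TNF was 0.48 in NK-like and -0.18 in monocyte/macrophage-like, and that of TNF over PBS in TRIF-KO was 0.025 in monocyte/macrophage-like and -0.025 in erythroid-like, and that of TRIF-KO over wild-type under PBS was -0.17 in monocyte/macrophage-like and 0.32 in erythroid-like. Genes higher for TNF over PBS in wild-type numbered 4 in T-like, 0 in NK-like, 7 in neutrophil-like and 3 in monocyte/macrophage-like, and genes higher for TNF over PBS in TRIF-KO numbered 0 in NK-like and 1 in monocyte/macrophage-like, and genes higher for TRIF-KO over wild-type under PBS numbered 4 in neutrophil-like and 7 in erythroid-like, and genes lower for TRIF-KO over wild-type under PBS numbered 1 in monocyte/macrophage-like, and genes lower for TRIF-KO over wild-type after TNF numbered 2 in monocyte/macrophage-like. The Psmb8 share of T-like cells was 80.7% (TNF in wild-type). The Psmb8 share of NK-like cells was 85% (TNF in wild-type) and 75% (TNF in TRIF-KO). The Psmb8 share of neutrophil-like cells was 55% (TNF in TRIF-KO). The Psmb8 share of monocyte/macrophage-like cells was 62.5% (PBS in wild-type) and 65.6% (TNF in TRIF-KO). The Psmb8 share of erythroid-like cells was 5.41% (PBS in wild-type), 24.2% (TNF in wild-type), 5.07% (PBS in TRIF-KO) and 14.7% (TNF in TRIF-KO). The Psmb9 share of NK-like cells was 66.7% (TNF in wild-type) and 63.2% (TNF in TRIF-KO). The Psmb9 share of neutrophil-like cells was 55.2% (TNF in TRIF-KO). The Psmb9 share of monocyte/macrophage-like cells was 76.7% (PBS in TRIF-KO) and 55% (TNF in TRIF-KO). The Psmb9 share of erythroid-like cells was 4.48% (PBS in wild-type), 12.1% (PBS in TRIF-KO) and 11.6% (TNF in TRIF-KO). The Psmb10 share of neutrophil-like cells was 8.33% (TNF in wild-type) and 31.4% (TNF in TRIF-KO). The Psmb10 share of monocyte/macrophage-like cells was 64.6% (PBS in wild-type), 75.7% (PBS in TRIF-KO) and 60% (TNF in TRIF-KO). The Psmb10 share of erythroid-like cells was 5.47% (PBS in wild-type), 16.7% (TNF in wild-type), 10.1% (PBS in TRIF-KO) and 15.3% (TNF in TRIF-KO). With UMIs thinned to the smallest library, genes higher for TNF over PBS in wild-type numbered 4 in T-like, 1 in NK-like and 2 in neutrophil-like, and genes higher for TNF over PBS in TRIF-KO numbered 4 in NK-like and 8 in monocyte/macrophage-like. Without the CPM filter, genes higher for TNF over PBS in TRIF-KO numbered 2 in neutrophil-like, and genes higher for TRIF-KO over wild-type under PBS numbered 2 in erythroid-like. Below 5 C1q UMIs, the log2 ratio of TNF over PBS in wild-type was 0.51 in monocyte/macrophage-like, and that of TNF over PBS in TRIF-KO was 0.50 in monocyte/macrophage-like. From 5 C1q UMIs up, the log2 ratio of TNF over PBS in TRIF-KO was 0.23 in monocyte/macrophage-like, and that of TRIF-KO over wild-type under PBS was 0.13 in monocyte/macrophage-like. Genes higher for TNF over PBS in wild-type numbered 3 in monocyte/macrophage-like, and genes higher for TNF over PBS in TRIF-KO numbered 4 in monocyte/macrophage-like, and genes lower for TRIF-KO over wild-type under PBS numbered 1 in monocyte/macrophage-like. With cells weighted equally, the log2 ratio of TNF over PBS in TRIF-KO was 0.35 in monocyte/macrophage-like, and that of TRIF-KO over wild-type under PBS was 0.035 in monocyte/macrophage-like. B-like cells held 3019 (PBS in wild-type), 3117 (TNF in wild-type), 3189 (PBS in TRIF-KO) and 3217 (TNF in TRIF-KO) CPM. T-like cells held 3393 (TNF in wild-type), 3195 (PBS in TRIF-KO) and 3615 (TNF in TRIF-KO) CPM. Neutrophil-like cells held 1224 (PBS in wild-type), 1383 (TNF in wild-type) and 1284 (TNF in TRIF-KO) CPM. Monocyte/macrophage-like cells held 4199 (PBS in wild-type), 4599.9 (TNF in wild-type) and 4999 (TNF in TRIF-KO) CPM. Erythroid-like cells held 1149.8 (PBS in wild-type), 1099.7 (TNF in wild-type), 813 (PBS in TRIF-KO) and 813 (TNF in TRIF-KO) CPM. Under 50% haemoglobin, the log2 ratio of TNF over PBS in wild-type was 0.11 in erythroid-like, and that of TNF over PBS in TRIF-KO was 0.10 in erythroid-like, and that of TRIF-KO over wild-type under PBS was 0.15 in erythroid-like, and that of TRIF-KO over wild-type after TNF was 0.15 in erythroid-like. From 50% haemoglobin up, the log2 ratio of TNF over PBS in wild-type was 0.26 in erythroid-like, and that of TNF over PBS in TRIF-KO was -0.086 in erythroid-like, and that of TRIF-KO over wild-type under PBS was 0.24 in erythroid-like, and that of TRIF-KO over wild-type after TNF was -0.15 in erythroid-like. Without mitochondrial, ribosomal, haemoglobin and immunoglobulin genes, B-like cells held 4811 (PBS in wild-type), 5369 (TNF in wild-type), 5359 (PBS in TRIF-KO) and 5548 (TNF in TRIF-KO) CPM. T-like cells held 5484 (PBS in wild-type), 6576 (TNF in wild-type), 5999.5 (PBS in TRIF-KO) and 6768 (TNF in TRIF-KO) CPM. NK-like cells held 5002 (PBS in wild-type), 6259 (TNF in wild-type), 5232 (PBS in TRIF-KO) and 7016 (TNF in TRIF-KO) CPM. Neutrophil-like cells held 1522 (TNF in TRIF-KO) CPM. Monocyte/macrophage-like cells held 5799.6 (PBS in wild-type), 6401 (TNF in wild-type), 5424 (PBS in TRIF-KO) and 6768 (TNF in TRIF-KO) CPM. Erythroid-like cells held 6120.4 (PBS in wild-type), 6093 (TNF in wild-type), 6174 (PBS in TRIF-KO) and 6416 (TNF in TRIF-KO) CPM.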
